A study of Mus musculus with 1 sample.

Results

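The insulin and insulin-like growth factor (IGF) genes described here were 10 rows of the matrix of the control testis library, taken by gene symbol out of its 22631 features. They comprised 2 ligands (*Igf1* and *Igf2*), 3 receptors (*Igf1r*, *Igf2r* and *Insr*) and 5 genes of binding proteins (*Igfbp2*, *Igfbp3*, *Igfbp4*, *Igfbp5* and *Igfbp7*). All 10 were seen in at least 10 of the cells kept. The library was made from 12 whole control testes, dissociated and pooled, captured in droplets (10x Genomics Chromium, 3′ chemistry), in which each captured RNA molecule carries a unique molecular index (UMI). Its label gives the genotype as WT and the age as embryonic day 14.5, while the series text adds the day before. Per the methods of the study, controls were *Nr5a1* L2/L2 fetuses, in which loxP sites flank part of both *Nr5a1* alleles, without the Cre transgene, so the gene was not excised. They were of mixed C57BL/6 and 129/SvPass background. The mutant library was not analysed here.

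IGF1 and IGF2 are secreted growth factors that signal through the tyrosine kinase receptor IGF1R and, in part, through the insulin receptor INSR, by way of IRS adaptors, PI3K and AKT. IGF2R has no kinase: it is the cation-independent mannose 6-phosphate receptor, which takes IGF2 to the lysosome. IGFBP proteins bind the ligands outside the cell and are themselves cut by proteases such as PAPPA. In mice, insulin receptor family signalling is required for testis determination.

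After removal of barcodes with fewer than 200 genes, doublets and outliers, 3816 of 5421 barcodes remained, with 54565051 UMIs and a median of 12031 UMIs per cell. They formed 16 clusters, of which 13 could be named from marker genes, giving 10 classes. These were 1350 interstitial-like, 860 Sertoli-like, 523 peritubular myoid-like, 305 Leydig-like, 254 germ-like, 154 coelomic epithelium-like, 60 perivascular-like, 42 endothelial-like, 35 immune-like and 17 erythroid-like cells, and 216 cells of 3 clusters stayed unnamed. Each class had at least 5 of its markers in 25% or more of its cells. The 10 genes and 50 further genes of the pathway were kept out of the variable genes used for clustering, and none was a marker. They were not kept out of the doublet search or of the 10 leading genes of a cluster, which are used in naming. Those included *Igfbp2* in the unnamed cluster 9 and *Htra1* in the unnamed cluster 12. Levels are counts of a gene per 1000000 UMIs of a class (CPM), with exact Poisson 95% intervals, and shares of cells with a UMI have exact binomial 95% intervals. These intervals cover counting error only, and as there was 1 library, no test between classes was possible.

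Cells differed in depth and carried some RNA of other cells. Median UMIs ran from 9438.5 in interstitial-like and 14309.5 in Sertoli-like cells to 36028 in germ-like cells, so shares are also given after each cell was thinned to 5000 UMIs. *Amh*, the hormone gene of Sertoli cells, stood at 1977.5 CPM in Sertoli-like cells, and was still read at 9.61 CPM (8.03 to 11.4) in interstitial-like cells and at 11.7 CPM (9.52 to 14.1) in germ-like cells. At 5000 UMIs, 3.70% of interstitial-like and 4.03% of germ-like cells held an *Amh* UMI. *Dppa3*, a germ cell marker, was at 10.2 CPM in Sertoli-like and 3.47 in interstitial-like cells. *Insl3*, a Leydig cell marker, was at 0.233 and 0.591 CPM in these classes. Background thus differed between markers, and that of the 10 genes was not measured. Levels and shares of the size seen for *Amh*, for genes abundant in other classes, are not taken below to show expression. Whether they are background was not tested. Haemoglobin RNA (*Hba-a1*) was spread more widely, at 14.1 to 811 CPM outside the erythroid-like class. Among the 17 erythroid-like cells, *Amh* reached 81.3 CPM, and values of that class are given without comment on expression.

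*Igf1* (ENSMUSG00000020053; GRCm38 chr10:87858265-87937042, plus strand) was read mostly outside the cords. Peritubular myoid-like cells, the contractile cells of the cord wall, had 120 CPM (112 to 128), immune-like cells 93.1 (68.9 to 123) and coelomic epithelium-like cells, from the surface of the gonad, 91.6 (80.9 to 103). Interstitial-like cells had 70.7 CPM (66.3 to 75.4), endothelial-like cells 64.2 (47.0 to 85.7) and perivascular-like cells 60.5 (43.8 to 81.5). Below these came the Leydig-like cells, a class named mostly by genes of steroid making, with 6.61 CPM (4.66 to 9.11). Sertoli-like cells had 3.42 (2.48 to 4.59) and germ-like cells 1.59 (0.867 to 2.66). In this order the intervals of the 3 highest classes overlapped from each neighbour to the next, as did those of the interstitial-like, endothelial-like and perivascular-like cells. At 5000 UMIs, an *Igf1* UMI was found in 36.8% of peritubular myoid-like, 32.7% of coelomic epithelium-like and 29.3% of interstitial-like cells, but in 1.66% of Sertoli-like and 0.403% of germ-like cells. The immune-like value rested on few cells, since 44 of its 49 UMIs lay in 10 cells.

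*Igf2* (ENSMUSG00000048583; GRCm38 chr7:142650766-142666816, minus strand), an imprinted gene expressed from the paternal copy, was nearly unread, with 282 UMIs in the kept cells and 327 in all barcodes. Its annotation bears on this. *Gm49394*, a protein-coding model on the same strand, shares 3596 of the 5723 exonic bases of *Igf2* (62.8%) and 997 of the last 1000 at its 3′ end, where this chemistry reads. Cell Ranger does not count a read that fits more than 1 gene, and *Gm49394* itself had 0 UMIs in every class. How many *Igf2* molecules were lost in this way was not tested, and the values below are not levels of the gene. They were 13.2 CPM (9.37 to 18.2) in coelomic epithelium-like, 11.4 (9.05 to 14.2) in peritubular myoid-like, 9.77 (3.93 to 20.1) in endothelial-like, 7.02 (5.68 to 8.58) in interstitial-like and 4.11 (2.61 to 6.17) in Leydig-like cells, against 0.311 (0.0846 to 0.795) in Sertoli-like and 0.226 (0.0274 to 0.818) in germ-like cells. No UMI was seen in perivascular-like, immune-like or erythroid-like cells, which allows up to 4.22, 5.70 and 8.41 CPM (3 UMIs of each class total). Among the clusters, the unnamed cluster 9 stood highest, with 33.6 CPM (22.5 to 48.2).

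**Figure D1:**
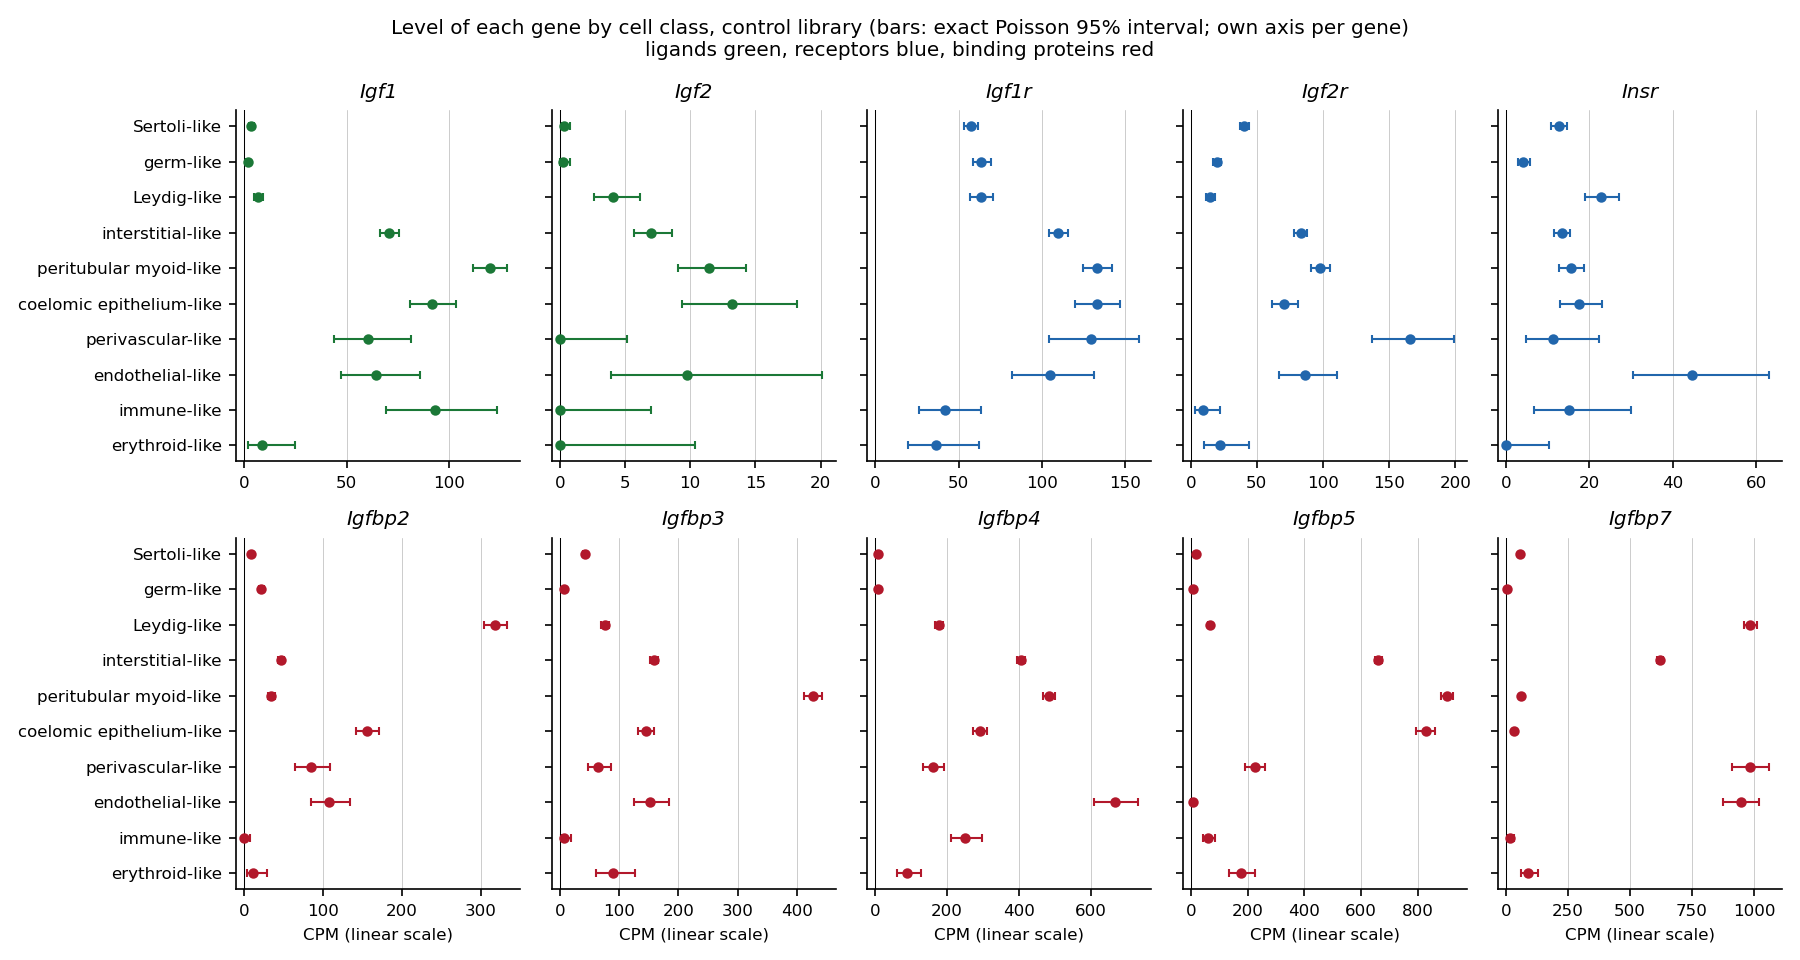
Level of each of the 10 genes (CPM, linear, 1 axis per gene) in the 10 named cell classes. Points are class totals and bars exact Poisson 95% intervals. *Igf1* is low in Sertoli-like, germ-like and Leydig-like cells, *Igf1r* is read in every class, and *Igfbp7* is high in Leydig-like, perivascular-like, endothelial-like and interstitial-like cells, with *Igfbp5* at 6.98 CPM in endothelial-like cells.

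*Igf1r* (ENSMUSG00000005533; GRCm38 chr7:67952827-68233668, plus strand), the gene of the main signalling receptor, was read in every class and the highest class stood 3.66 times above the lowest. Its level was 133 CPM (125 to 142) in peritubular myoid-like, 133 (120 to 147) in coelomic epithelium-like, 129 (104 to 159) in perivascular-like, 110 (104 to 115) in interstitial-like and 105 (82.4 to 131) in endothelial-like cells. A second group of classes lay lower, with 63.8 CPM (58.6 to 69.2) in germ-like, 63.6 (57.2 to 70.6) in Leydig-like and 57.2 (53.2 to 61.5) in Sertoli-like cells, and 41.8 (26.2 to 63.3) in the 35 immune-like and 36.4 (19.4 to 62.3) in the 17 erythroid-like cells. Within each of these groups the intervals of neighbouring classes overlapped, and between the groups they did not. The share of germ-like cells with an *Igf1r* UMI was 83.1% (77.9 to 87.5) as read, above the 63.5% (60.8 to 66.1) of interstitial-like cells. At 5000 UMIs this order turned over, with 25.8% of germ-like and 39.9% of interstitial-like cells.

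*Igf2r* (ENSMUSG00000023830; GRCm38 chr17:12682406-12769664, minus strand), the scavenging receptor, was highest in perivascular-like cells, which wrap small vessels, with 166 CPM (137 to 199). No interval of another class reached it. Peritubular myoid-like cells had 97.8 CPM (90.6 to 105), endothelial-like 86.6 (66.4 to 111), interstitial-like 83.2 (78.4 to 88.2) and coelomic epithelium-like cells 70.7 (61.3 to 81.1). Sertoli-like cells followed with 40.5 CPM (37.1 to 44.2), germ-like cells with 19.9 (17.1 to 23.1), Leydig-like cells with 14.8 (11.8 to 18.4) and immune-like cells with 9.50 (3.08 to 22.2). At 5000 UMIs, 54.2% of perivascular-like and 33.5% of interstitial-like cells held a UMI, against 8.28% of Leydig-like and 8.06% of germ-like cells. For these last classes the shares as read were 23.0% (18.4 to 28.1) and 45.3% (39.0 to 51.6), and at 3000 UMIs 4.59% and 9.52%. The germ-like share was thus higher at 3000 than at 5000 UMIs, and each thinning was a separate random draw. No order of these classes is read from the thinned shares.

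*Insr* (ENSMUSG00000005534; GRCm38 chr8:3122061-3279617, minus strand), the insulin receptor gene, was highest in endothelial-like cells, with 44.7 CPM (30.6 to 63.1) from 32 UMIs in 42 cells. Leydig-like cells came next with 22.7 CPM (18.9 to 27.0), and their interval overlapped that of coelomic epithelium-like cells at 17.4 (12.9 to 23.0). Peritubular myoid-like, immune-like, interstitial-like, Sertoli-like and perivascular-like cells lay between 11.3 and 15.5 CPM with overlapping intervals, and germ-like cells at 4.08 (2.86 to 5.64). At 5000 UMIs, 23.8% of endothelial-like and 12.9% of Leydig-like cells held an *Insr* UMI, with 5.78% of interstitial-like, 6.05% of Sertoli-like and 1.61% of germ-like cells. No *Insr* UMI was seen in the 17 erythroid-like cells, which allows a share of up to 17.6% (3 of 17 cells).

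**Figure D2:**
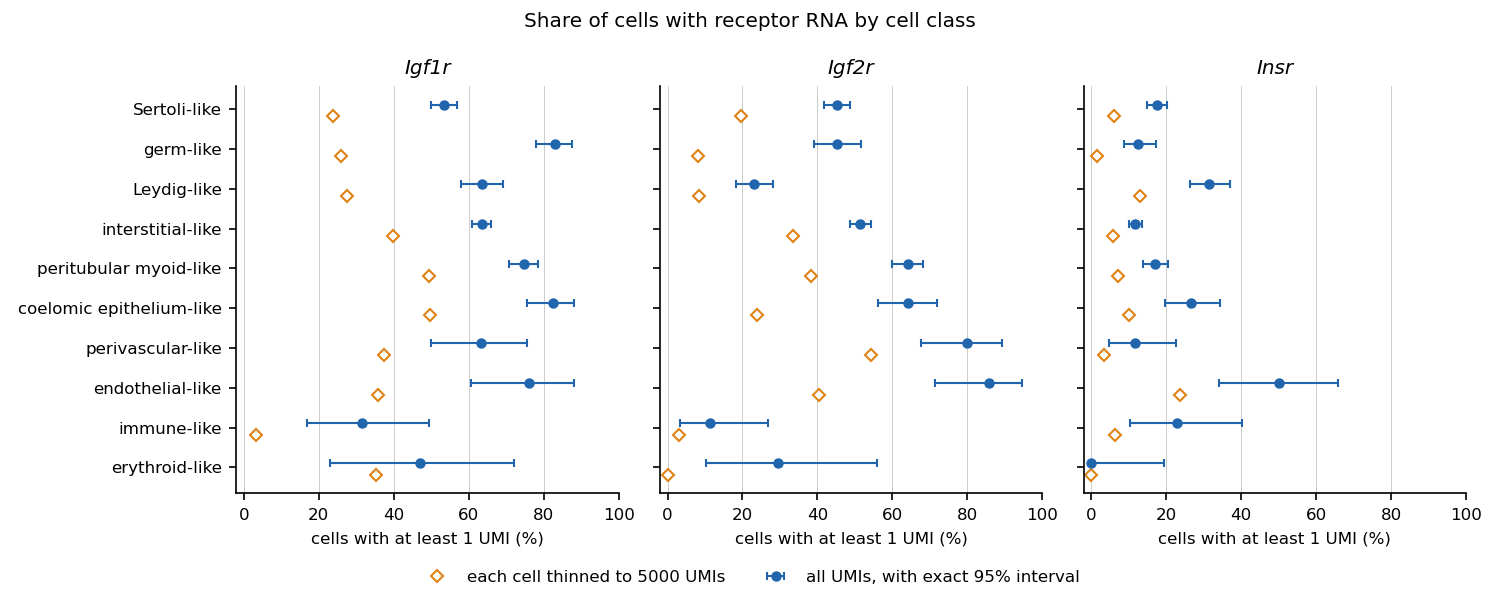
Share of cells with at least 1 UMI of each receptor gene, by class. Filled points with exact binomial 95% intervals are shares as read, and open diamonds are shares after each cell was thinned to 5000 UMIs. Germ-like cells fall from 83.1% to 25.8% for *Igf1r* on thinning, and *Insr* stays highest in endothelial-like cells at 23.8%.

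At 5000 UMIs per cell, *Igf1r* and *Insr* UMIs met in few cells. Both were found in 2.85% of the 1297 interstitial-like cells deep enough, while 37.0% held *Igf1r* alone and 2.93% *Insr* alone. In Leydig-like cells, 2.65% held both, 24.8% *Igf1r* alone and 10.3% *Insr* alone. The product of the separate shares was 2.31% in interstitial-like and 3.55% in Leydig-like cells. For the ligand and its receptor, 18.8% of peritubular myoid-like cells held both *Igf1* and *Igf1r*, beside a product of 18.1%, and 13.0% of interstitial-like cells, beside 11.7%. At counts this sparse a missing UMI does not show that the gene was silent.

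The binding protein genes differed more between classes than the receptor genes. *Igfbp2* (ENSMUSG00000039323; chr1:72824503-72852474, plus strand) and *Igfbp5* (ENSMUSG00000026185; chr1:72857932-72874884, minus strand) are neighbours that lie tail to tail with 5457 bases between them on GRCm38, and their levels followed different orders of classes. The proximal promoters of these neighbours, and of *Igfbp4* and *Igfbp7*, the other genes whose levels separate the classes most, are given from RefSeq (GRCm38.p6) as the bases before the annotated start, 5′ to 3′ on the gene's strand, with motif matches in capitals. *Igfbp2* stands at chr1:72824230-72824479 (its first entry of 2), *Igfbp5* at chr1:72874885-72875115 without 19 exonic bases, *Igfbp4* at chr11:99040994-99041243 and *Igfbp7* at chr5:77408046-77408295, the second and last of these on the minus strand.
Igfbp2: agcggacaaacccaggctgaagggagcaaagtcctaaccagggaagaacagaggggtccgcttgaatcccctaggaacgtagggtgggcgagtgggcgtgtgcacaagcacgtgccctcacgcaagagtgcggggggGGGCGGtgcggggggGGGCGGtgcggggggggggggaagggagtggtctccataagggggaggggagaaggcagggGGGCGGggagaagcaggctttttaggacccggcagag
Igfbp5: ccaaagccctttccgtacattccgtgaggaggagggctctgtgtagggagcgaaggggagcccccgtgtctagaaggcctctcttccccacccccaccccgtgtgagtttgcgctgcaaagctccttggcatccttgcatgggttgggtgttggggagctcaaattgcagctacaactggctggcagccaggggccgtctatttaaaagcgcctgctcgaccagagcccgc
Igfbp4: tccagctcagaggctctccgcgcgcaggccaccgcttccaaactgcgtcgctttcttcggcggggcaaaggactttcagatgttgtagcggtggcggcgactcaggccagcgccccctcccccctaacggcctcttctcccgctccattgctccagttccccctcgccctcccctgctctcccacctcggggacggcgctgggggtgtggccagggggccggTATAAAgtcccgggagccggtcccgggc
Igfbp7: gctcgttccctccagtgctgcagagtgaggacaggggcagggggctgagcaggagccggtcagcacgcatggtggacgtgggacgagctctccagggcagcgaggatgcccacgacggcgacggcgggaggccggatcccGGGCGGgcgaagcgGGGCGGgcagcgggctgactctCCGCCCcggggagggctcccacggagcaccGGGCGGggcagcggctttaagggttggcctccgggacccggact

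Of the 10 genes, 9 had promoter entries (13 in all), and *Insr* had none. Searched on both strands were the TATA box TATAAA, the motif CCAAT, the GC box GGGCGG and the core AGGTCA of many nuclear receptor sites, which do not overlap in the printed sequences. Among 32851 promoter windows of 250 bases, 12.4% held TATAAA, 33.9% CCAAT, 32.7% GGGCGG and 14.0% AGGTCA. The printed *Igfbp2* window held GGGCGG 3 times and the *Igfbp7* window 4 times. In *Igfbp4*, TATAAA lay 28 bases before the start. The *Igfbp5* window held none of these motifs. A match is a string of letters and not a tested site.

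*Igfbp2* was highest in Leydig-like cells, with 318 CPM (303 to 333), then in coelomic epithelium-like cells with 156 (142 to 171), endothelial-like with 108 (84.8 to 134) and perivascular-like with 84.4 (64.4 to 109). Interstitial-like cells had 46.5 CPM (42.9 to 50.3), peritubular myoid-like 34.4 (30.2 to 39.1), germ-like 21.6 (18.7 to 24.9) and Sertoli-like 8.69 (7.16 to 10.5). No *Igfbp2* UMI was found in immune-like cells, which allows up to 5.70 CPM. At 5000 UMIs, 60.6% of Leydig-like, 41.5% of coelomic epithelium-like and 17.2% of interstitial-like cells held a UMI, against 4.03% of Sertoli-like cells.

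*Igfbp3* (ENSMUSG00000020427; chr11:7206086-7213923, minus strand), whose product carries most IGF in the blood of adults, was highest in peritubular myoid-like cells, with 428 CPM (412 to 443). Interstitial-like cells had 159 (153 to 166), endothelial-like 152 (125 to 184) and coelomic epithelium-like cells 145 (131 to 160), with overlapping intervals. Of the 109 endothelial-like UMIs, 92 lay in 10 cells. Leydig-like cells had 76.0 CPM (68.9 to 83.5), perivascular-like 64.7 (47.4 to 86.3) and Sertoli-like cells 42.2 (38.8 to 45.9), and germ-like and immune-like cells 7.59 (5.88 to 9.63) and 7.60 (2.07 to 19.5). Among Sertoli-like cells the UMIs were spread, with 9.38% of them in the 10 richest cells and a UMI in 16.8% of cells at 5000 UMIs.

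*Igfbp4* (ENSMUSG00000017493; chr11:99041244-99054392, plus strand), whose product is cut by PAPPA, was highest in endothelial-like cells, with 669 CPM (610 to 731) and a UMI in all 42 cells. It stood at 482 (466 to 499) in peritubular myoid-like, 407 (396 to 417) in interstitial-like, 292 (272 to 312) in coelomic epithelium-like, 251 (210 to 297) in immune-like, 178 (167 to 190) in Leydig-like and 160 (132 to 193) in perivascular-like cells. Sertoli-like and germ-like cells had 8.46 (6.95 to 10.2) and 7.25 (5.58 to 9.25) CPM, which is the size of the background of *Amh* in other classes. Of the 132 immune-like UMIs, 98 lay in 10 cells.

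*Igfbp5*, whose product also binds the extracellular matrix, was highest in peritubular myoid-like cells, with 902 CPM (880 to 925), then coelomic epithelium-like with 827 (794 to 861) and interstitial-like with 660 (647 to 674), and these 3 intervals did not overlap. This order is of class totals. The interstitial-like clusters ran from 483 CPM (457 to 510) in cluster 5 and 615 (598 to 633) in cluster 1 to 910 (877 to 943) in cluster 3. In interstitial-like cells thinned to 5000 UMIs the median cell held 3 *Igfbp5* UMIs, with quartiles of 1 and 5. Perivascular-like cells had 225 CPM (192 to 263), Leydig-like 67.0 (60.4 to 74.2), Sertoli-like 17.3 (15.1 to 19.7), germ-like 7.93 (6.18 to 10.0) and endothelial-like cells 6.98 (2.27 to 16.3). *Igfbp4* and *Igfbp5* thus parted in endothelial-like cells: at 5000 UMIs, 85.7% of these held *Igfbp4* alone and 4.76% both. Both were held by 71.2% of interstitial-like and 81.8% of peritubular myoid-like cells. The products of the separate shares were 4.31%, 70.0% and 81.5% in these classes, in turn. In immune-like cells 25 of 32 *Igfbp5* UMIs, and in erythroid-like cells 37 of 63, came from 1 cell. In Sertoli-like cells 136 of 223 lay in 10 cells.

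*Igfbp7* (ENSMUSG00000036256; chr5:77349240-77408041, minus strand), a matrix protein gene of blood vessels with low affinity for IGF, showed another order again. Leydig-like cells had 985 CPM (960 to 1012), perivascular-like 984 (913 to 1060) and endothelial-like cells 947 (877 to 1021), with overlapping intervals, and interstitial-like cells 621 (607 to 634). Peritubular myoid-like cells had 61.2 CPM (55.5 to 67.3), Sertoli-like 56.5 (52.5 to 60.8), coelomic epithelium-like 33.4 (27.1 to 40.8) and germ-like 4.42 (3.14 to 6.04). At 5000 UMIs, 95.7% of Leydig-like, 98.3% of perivascular-like, 85.3% of interstitial-like and 76.2% of endothelial-like cells held a UMI. The share was 20.2% in peritubular myoid-like and 19.1% in Sertoli-like cells. Of the 678 endothelial-like UMIs, 436 lay in 10 of the 42 cells, while the median endothelial-like cell held 3 at 5000 UMIs. The 3′ end of *Igfbp7* overlaps *Polr2b* on the other strand by 85 bases (7.03% of its exonic length). In Leydig-like cells, 57.9% held *Igfbp2* and *Igfbp7* together at 5000 UMIs, beside a product of the separate shares of 58.0%. Of these cells 49.7% held *Igfbp2* without *Igfbp5*, and 10.9% held *Igfbp2* with *Igfbp5*, beside a product of 13.6%.

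Counted over the 10 genes, at least 10% of cells as read held a UMI of 10 genes in coelomic epithelium-like and in peritubular myoid-like cells, 9 in interstitial-like, perivascular-like and endothelial-like cells, 8 in Leydig-like and germ-like cells, 7 in immune-like cells and 5 in Sertoli-like cells. After thinning to 5000 UMIs the count in germ-like cells was 1, *Igf1r*, and in Sertoli-like cells it was 4, *Igf1r*, *Igf2r*, *Igfbp3* and *Igfbp7*. In immune-like cells it was 2, *Igf1* and *Igfbp4*. The share of all genes that pass this cut in each class is not given here, so these counts are not read as particular to the 10 genes.

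The first comparison set the interstitium against the supporting cells of the cords. In interstitial-like cells 7 of the 10 genes were 2-fold or more higher than in Sertoli-like cells, *Igf1*, *Igf2* and all 5 binding protein genes, and 0 were lower. The call of *Igf2* rests on 95 and 4 UMIs and carries the limit of its annotation given above. Of all 15100 genes seen in at least 10 cells, 7.87% were that much higher and 8.6% that much lower. A gene is called here when the log2 ratio of CPM, with 5 CPM added to both sides, reaches 1 either way. This ratio was 4.93 (4.72 to 5.14) for *Igfbp4*, 4.90 (4.72 to 5.08) for *Igfbp5*, 3.35 (3.22 to 3.47) for *Igfbp7* and 3.17 (2.90 to 3.43) for *Igf1*. It was 1.91 (1.63 to 2.18) for *Igfbp2*, 1.80 (1.63 to 1.97) for *Igfbp3* and 1.18 (0.88 to 1.42) for *Igf2*. With 5 CPM added the receptor genes fell under the limit, *Igf2r* with 0.95 (0.76 to 1.15), *Igf1r* with 0.88 (0.72 to 1.05) and *Insr* with 0.06 (-0.26 to 0.38). For *Igf2r* this was narrow and depended on the CPM added, since its levels as read, 83.2 and 40.5 CPM, differ by more than 2-fold. The intervals of *Igf2r* and *Igf1r* both cross the limit. The median over the 10 genes was 1.85, and over all genes it was near 0. Without doublet removal the ratio was 3.83 for *Igfbp4* and 3.71 for *Igfbp5*, and *Igf2* lost its call with 20 CPM added (0.41).

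Leydig-like cells differed from interstitial-like cells in both directions. *Igfbp2* was higher, with a log2 ratio of 2.65 (2.48 to 2.82), and 5 genes were lower: *Igfbp5* by -3.21 (-3.38 to -3.04), *Igf1* by -2.71 (-3.06 to -2.34), *Igf2r* by -2.15 (-2.47 to -1.83), *Igfbp4* by -1.17 (-1.29 to -1.04) and *Igfbp3* by -1.02 (-1.21 to -0.83). Of all genes, 5.47% were called higher and 7.51% lower, and the median of the 10 genes was -0.88 against -0.07 over all genes. *Igfbp7* and *Insr* stood higher without reaching the limit, with 0.66 (0.59 to 0.73) and 0.60 (0.23 to 0.96), and *Igf1r* lower with -0.74 (-0.95 to -0.53). *Igfbp3* and *Igfbp4* lay near the limit, and both lost their call when each cell weighed the same (-0.94 and -0.96), which left 3 genes called lower. The class also joins 2 unlike clusters, described below. In cluster 6, with 178 of the 305 cells, *Igfbp3* (111 CPM) and *Igfbp4* (294) lay within 2-fold of interstitial-like cells (159 and 407). In cluster 8 they were at 49.2 and 89.1 CPM. When the unnamed clusters joined their nearest class, the ratio of *Igfbp2* was 1.66.

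Peritubular myoid-like cells stayed within 2-fold of interstitial-like cells for 8 of the 10 genes. This comparison, the one before and the next share the interstitial-like cells. *Igfbp3* was called higher, with 1.40 (1.29 to 1.51), and *Igfbp7* lower, with -3.24 (-3.40 to -3.08), where 1.4% of all genes were higher and 1.87% lower. *Igf1* had 0.72 (0.54 to 0.90), *Igfbp5* 0.45 (0.38 to 0.51) and *Igfbp4* 0.24 (0.16 to 0.33). The median was 0.26 over the 10 genes and -0.02 over all. *Igfbp7* kept its direction but moved to -1.45 when classes were set cell by cell, without clusters, and *Igfbp2* was also called lower, at -1.38, when the unnamed clusters joined their nearest class.

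Coelomic epithelium-like cells likewise had 1 gene called higher than in interstitial-like cells, *Igfbp2* with 1.64 (1.41 to 1.88), and 1 lower, *Igfbp7* with -4.02 (-4.32 to -3.74). Over all genes 3.77% were called higher and 3.29% lower, with a median of -0.01 against 0.28 for the 10 genes. *Igf1* (0.35), *Igf1r* (0.27), *Igfbp5* (0.32) and *Igfbp3* (-0.13) lay near 0. The call of *Igfbp2* was lost, at 0.65, when the unnamed clusters joined their nearest class, which for cluster 9 was the interstitial-like one. Cluster 9 held 775 *Igfbp2* UMIs and cluster 12, which also joined that class, 48, beside 629 in the interstitial-like cells. The ratio with each cluster alone was not tested.

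Between the cell types of the cords, germ-like cells had 0 of the 10 genes called higher than in Sertoli-like cells and 2 lower, *Igfbp7* with -2.71 (-3.01 to -2.38) and *Igfbp3* with -1.91 (-2.23 to -1.58). Of all genes, 10.1% were called higher and 17.4% lower, and the members' median was -0.57 beside -0.05. *Igf1r* had a ratio of 0.14 (-0.06 to 0.35). *Igfbp2* with 0.96 (0.61 to 1.30), *Insr* with -0.95 (-1.32 to -0.56) and *Igf2r* with -0.87 (-1.15 to -0.58) came near the limit. With 1 CPM added in place of 5, 1 gene was called higher, *Igfbp2*, and 4 lower, with *Insr* and *Igfbp5* added. The call of *Igfbp5* rested on few Sertoli-like cells. Without the 10 richest, that class had 6.83 CPM (5.47 to 8.42), beside 7.93 (6.18 to 10.0) in germ-like cells. No germ-like cells were left out, although 34 of their 70 UMIs also lay in 10 cells, so these levels are not a like comparison. With 5 CPM added and each cell classed by itself, the ratio of *Igfbp5* was 0.42.

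**Figure D3:**
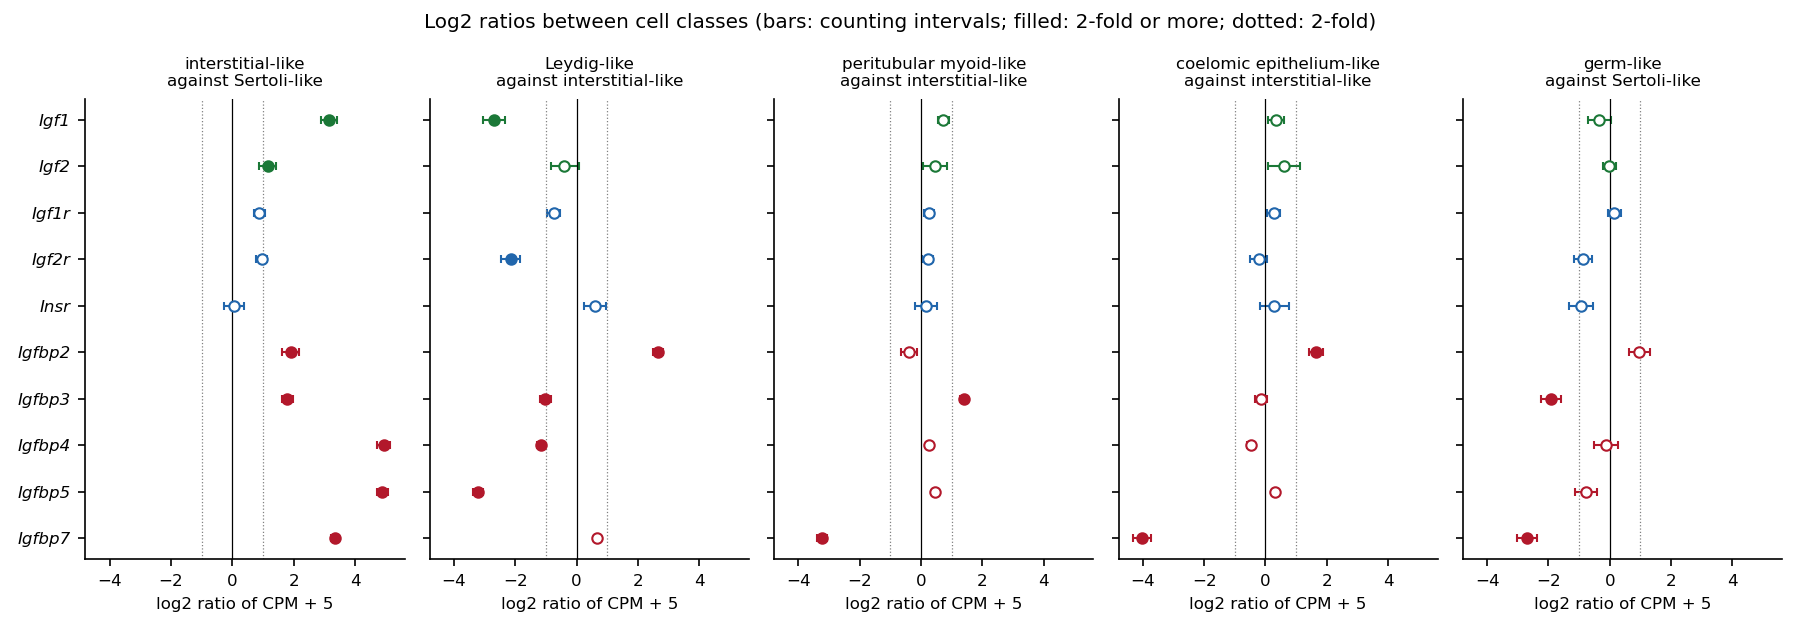
Log2 ratio of each gene between pairs of classes, with 5 CPM added to both sides. Bars are intervals from counting error, filled points pass the 2-fold limit marked by dotted lines, and colours give ligands (green), receptors (blue) and binding proteins (red). *Igfbp2* and *Igfbp5* lie on opposite sides in the Leydig-like panel (2.65 and -3.21), and *Igfbp7* is far to the left in the peritubular myoid-like (-3.24), coelomic epithelium-like (-4.02) and germ-like (-2.71) panels.

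Within the Leydig-like class, the 127 cells of cluster 8, led by the steroid enzyme genes *Cyp11a1* and *Cyp17a1* and by *Star*, differed from the 178 cells of cluster 6, led by *Nppc*, *Vsnl1* and *Nts*. These and the other pairs of clusters were chosen after the values were seen. *Igfbp2* was at 418 CPM (396 to 441) in cluster 8 and 189 (172 to 207) in cluster 6, and *Igfbp7* at 1179 (1141 to 1217) and 736 (702 to 771). *Igfbp5* ran the other way, with 21.2 (16.5 to 27.0) and 126 (112 to 141), as did *Igfbp4* with 89.1 (79.0 to 100) and 294 (273 to 316), *Igfbp3* with 49.2 (41.7 to 57.5) and 111 (97.8 to 125) and *Igf1* with 2.85 (1.31 to 5.42) and 11.5 (7.62 to 16.6). For all 6 genes, the level in cluster 6 lay between those of cluster 8 and of the interstitial-like class. *Insr* was at 23.5 (18.4 to 29.5) and 21.7 (16.3 to 28.4), with overlapping intervals.

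The interstitial-like class was also mixed. Cluster 3 (362 cells, led by *Ntng1*, *Lhx9* and *Wnt4*) had 297 CPM of *Igfbp7* (278 to 316) and 19.3 of *Igfbp2* (14.8 to 24.7), against 744 (725 to 764) and 59.3 (54.0 to 65.0) in cluster 1 (793 cells, led by *Colec11* and *Inhba*). *Igfbp5* was higher in cluster 3, with 910 (877 to 943) against 615 (598 to 633), as was *Igf1* with 92.9 (82.7 to 104) against 63.5 (58.0 to 69.4). *Igf1r* had 119 (108 to 132) and 111 (104 to 119) CPM. The unnamed cluster 9, of 91 cells with *Kcnk2* and *Gdf10* among its leading genes, held the most *Igfbp2* of any cluster, 898 CPM (835 to 963), and also the most *Igfbp5*, 1295 (1220 to 1373), and *Igf1*, 141 (117 to 169). Its best class was interstitial-like, with all 9 markers seen in 25% or more of its cells. *Emcn*, an endothelial marker, was among its 10 leading genes and no interstitial marker was, so it kept its number. The interstitial-like clusters 1, 3 and 5 had no interstitial marker among their leading genes either, but none of another class.

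**Figure D4:**
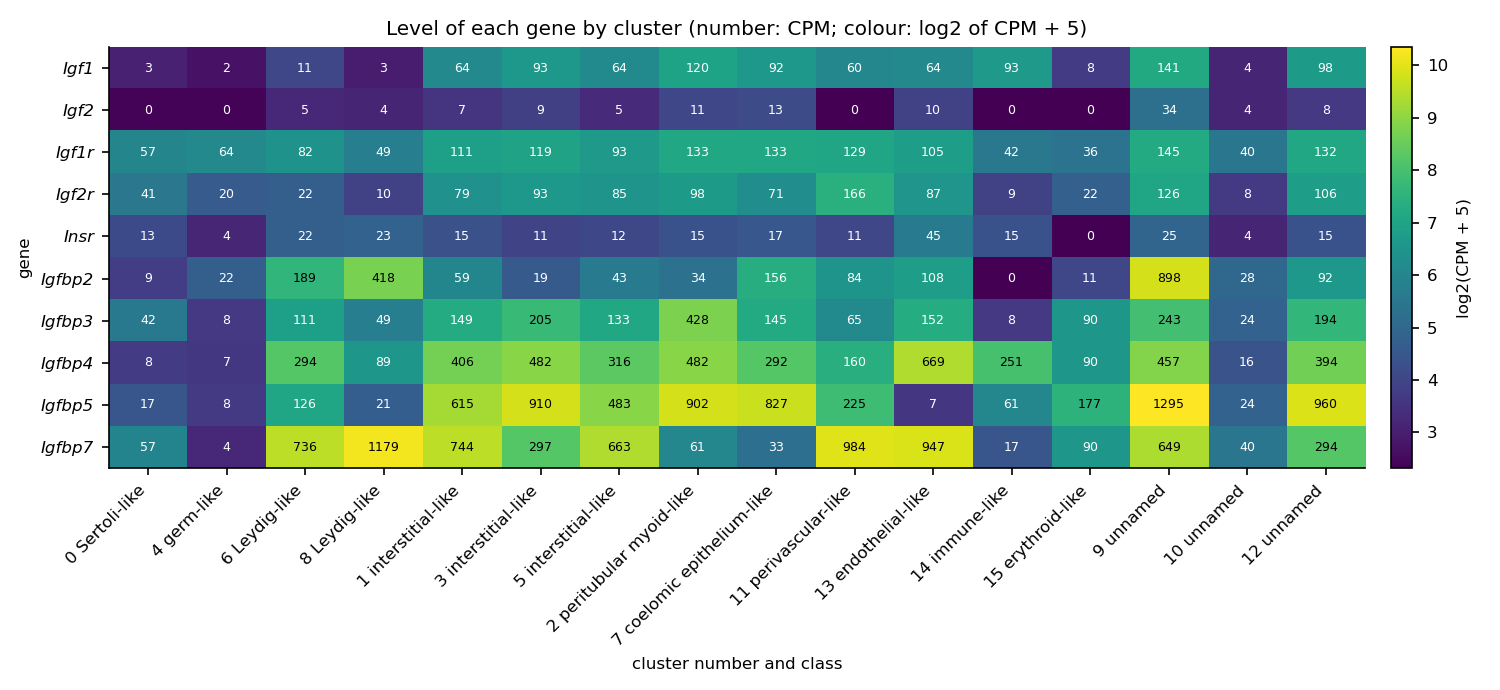
Level of the 10 genes in each of the 16 clusters, ordered by class. Printed values are CPM rounded to whole numbers and the colour is log2 of CPM plus 5. In the Leydig-like pair, cluster 8 has more *Igfbp2* and *Igfbp7* and less *Igfbp5* than cluster 6, and cluster 9 has the highest *Igfbp2*, *Igfbp5* and *Igf1*.

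By cell-cycle scores on thinned cells, 377 of 843 Sertoli-like cells (44.7%) and 641 of 1297 interstitial-like cells (49.4%) were placed in S or G2/M. *Pcna*, a replication gene, was at 237 against 55.1 CPM in the Sertoli-like and 291 against 59.3 CPM in the interstitial-like cells. *Pcna* is itself among the S genes of the score, so its difference is no separate check of the phases. Of the 10 genes, 0 were called higher in S or G2/M, where 3% of 12098 genes in Sertoli-like and 3.31% of 12280 genes in interstitial-like cells were. In interstitial-like cells 0 were called lower (0.0326% of all genes), and the ratios ran from -0.38 for *Igfbp3* to 0.05 for *Igfbp7*. In Sertoli-like cells 1 was called lower (0.0909% of all genes), *Igfbp5*, with 5.31 CPM (3.70 to 7.39) in S or G2/M and 28.4 (24.4 to 32.9) in G1, a log2 ratio of -1.70. This call rested on few cells: 136 of the 223 *Igfbp5* UMIs of the class lay in 10 cells, all in G1. Of these cells 7 held an *Amh* UMI, against 98.7% of all Sertoli-like cells, and their identity was not tested. Without these 10 cells, the level was 5.31 CPM in S or G2/M and 6.73 in G1. That of the whole class was 6.83 (5.47 to 8.42), which is the size of the background of *Amh* in other classes.

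Across the 9 classes of at least 30 cells, the genes whose log2 levels followed *Igfbp5* most closely out of 9689 compared were *Tcf21* (Pearson r = 0.99), *Lhx9* (0.99) and *Dlk1* (0.98). Those nearest to *Igf1r* were *Nfyb* (0.99), *Tcf7l1* (0.99) and *Mex3a* (0.98), to *Igf1* *Nsd3* (0.97), *Rbm3* (0.97) and *Ahnak* (0.97), and to *Igf2r* *Mprip* (0.97), *Nedd1* (0.97) and *Sertad2* (0.96). *Igfbp3* was followed by *Ythdf3* (0.97), *Fzd8* (0.96) and *Reck* (0.95), *Igfbp4* by *Rflnb* (0.97), *Capn2* (0.96) and *Zfp36l1* (0.95), *Igfbp2* by *Nit2* (0.92), *Psma3* (0.92) and *Il1r1* (0.91), *Igfbp7* by *Nt5m* (0.93), *Alg14* (0.93) and *Col4a1* (0.92), and *Insr* by *Lrrc57* (0.93), *Zdhhc7* (0.91) and *Ltbr* (0.91). Among the 10 genes themselves, *Igf1r* and *Igf2r* were most alike (0.91), then *Igf1* and *Igfbp4* (0.86), while *Igfbp5* had 0.24 with its neighbour *Igfbp2*, 0.11 with *Igfbp7* and -0.05 with *Insr*. These values describe 9 points from 1 library that share its depth and free RNA, and no test was made. *Igf2* is left out because of its annotation.

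Of 50 further genes of the pathway, 48 were in the matrix and 45 were seen in at least 10 cells. *H19* and *Igf2os*, partners of the *Igf2* locus, were not analysed here. *Ins1* and *Igfbp1* had 0 UMIs in the kept cells and *Igfals*, the acid-labile subunit of the blood carrier complex, had 1. *Ins2*, an insulin gene, had 35 UMIs in 27 cells. Between interstitial-like and Sertoli-like cells 8 of the 45 were called higher and 2 lower, in Leydig-like against interstitial-like cells 4 and 3, in peritubular myoid-like 0 and 3, in coelomic epithelium-like 3 and 4, and in germ-like against Sertoli-like cells 8 and 10, beside the shares of all genes given above for each comparison.

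Of the 5 proteases of binding proteins and their inhibitors, 1 was called higher and 1 lower in interstitial-like against Sertoli-like cells (median -0.23). *Pappa*, which cuts IGFBP4 and so frees IGF, was at 62.6 CPM (58.4 to 67.1) in Sertoli-like, 34.5 (29.8 to 39.7) in Leydig-like and 9.46 (7.89 to 11.2) in interstitial-like cells. *Stc1*, an inhibitor of PAPPA, was at 107 CPM (102 to 113) in interstitial-like and 62.2 (55.8 to 69.1) in Leydig-like cells and at 1.40 (0.828 to 2.21) in Sertoli-like cells. *Stc2*, of the same family, was called higher in Leydig-like than in interstitial-like cells, with 28.4 (24.2 to 33.2) against 9.54 (7.96 to 11.3) CPM. In germ-like against Sertoli-like cells 3 of the 5 were called lower, *Pappa* by -3.20, *Htra1*, a serine protease, by -3.15 and *Stc2* by -2.17. *Pappa2* was read in coelomic epithelium-like cells with 45 UMIs (15.7 CPM), and with 0 UMIs in interstitial-like cells, which allows up to 0.222 CPM there.

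Among the other ligands and binding proteins, of which 4 of 7 were seen in 10 cells, *Igfbp6*, whose product prefers IGF2, was at 79.8 CPM (69.8 to 90.8) in coelomic epithelium-like and 16.3 (14.3 to 18.6) in interstitial-like cells and at 0.621 (0.268 to 1.22) in Sertoli-like cells. *Igfbpl1* was at 28.8 CPM (25.3 to 32.5) in germ-like and 0.311 (0.0846 to 0.795) in Sertoli-like cells. Of the 4 remaining genes of the *Igf2* list, *Igf2bp1*, which encodes an RNA-binding protein, was called higher in interstitial-like (1.57) and in germ-like (1.69) than in Sertoli-like cells, where *Igf2bp2* was called lower in germ-like cells (-1.39) and *M6pr*, the small mannose 6-phosphate receptor, higher (1.19).

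*Grb10*, itself imprinted and an inhibitor of both receptors, was at 230 CPM (222 to 238) in interstitial-like, 95.1 (87.2 to 104) in Leydig-like, 42.3 (38.8 to 46.0) in Sertoli-like and 6.11 (4.59 to 7.98) in germ-like cells. *Grb14*, a related inhibitor, was at 111 (103 to 120) CPM in Leydig-like, 94.4 (89.2 to 99.9) in Sertoli-like, an interval of 21.5 to 26.8 in interstitial-like and 1.02 (0.466 to 1.93) in germ-like cells. *Shc1* (1.70) and *Irs1* (1.19) were called higher in interstitial-like than in Sertoli-like cells, and *Gab1* lower in germ-like than in Sertoli-like cells (-2.56). The median of the 9 adaptors was -0.31 in the first and -0.61 in the second of these comparisons.

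Of the 10 PI3K and AKT genes, *Akt1* (1.37) and *Pik3r1* (1.17) were called higher in interstitial-like than in Sertoli-like cells and 0 lower (median 0.27). In Leydig-like against interstitial-like cells *Akt2* was called higher (1.09). Germ-like cells had more *Pik3r3* (2.40) and less *Akt1* (-1.75) and *Pik3r1* (-1.35) than Sertoli-like cells. None of the 13 FOXO, GSK3 and mTOR genes was called in the 4 comparisons between somatic classes, where the list medians ran from -0.16 to 0.08. In germ-like against Sertoli-like cells *Mtor* (1.54), *Foxo1* (1.39) and *Tsc1* (1.35) were called higher and *Gsk3a* lower (-1.20).

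**Figure D5:**
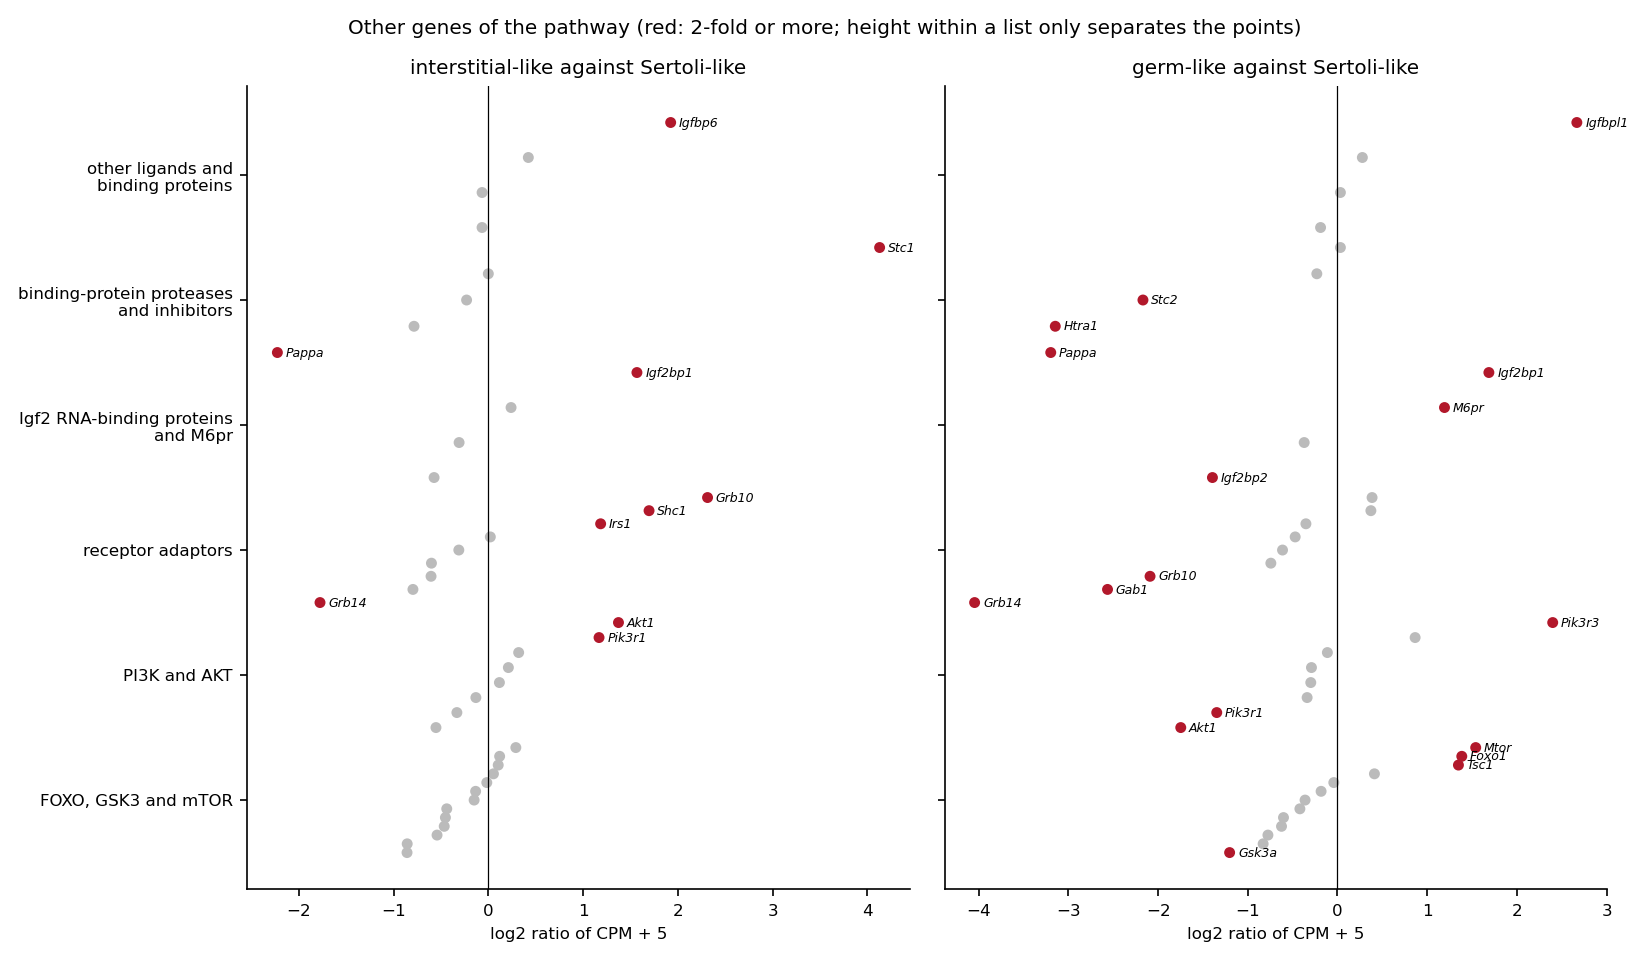
Log2 ratios of the other pathway genes, by list, in interstitial-like (left) and germ-like (right) against Sertoli-like cells, with 5 CPM added. Each point is 1 gene, for the genes reported here, and red points pass the 2-fold limit. *Stc1* (4.13) and *Pappa* (-2.23) lie at the ends of the left panel, *Grb14* (-4.05) and *Igfbpl1* (2.67) at those of the right, and the FOXO, GSK3 and mTOR genes stay within the limit on the left.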

How the data were processed

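The values are raw UMI counts per gene in each barcode, as deposited by the authors from Cell Ranger. The submitters' processing notes name versions 3.0.2 and 3.1.0, and the study's methods another. Members and gene lists were chosen with earlier results of these data known.

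Barcodes with fewer than 200 genes were removed, then 204 doublets (4.04%, by similarity to artificial doublets) and cells over 3 median absolute deviations out in UMIs, genes, mitochondrial or ribosomal share. Cells were normalised with sctransform 0.4.2 and clustered in Seurat 5.3.0 (R 4.3.3; 30 components, resolution 0.8) on 2983 variable genes, without the 17 member or pathway genes among them. A cluster was named where its markers averaged a log2 ratio of 1 or more, at least 3 were seen in 25% of cells, and its 10 leading genes did not favour another class. A shallow cluster also needed a marker of its class among those genes. This left cluster 10 unnamed (65 cells, median 3116 UMIs), whose best class was Sertoli-like. Rebuilt names can differ from the study's. UMIs were summed per class with scipy 1.17.1 and pandas 2.3.3 under Python 3.11.15. The ratios, calls and counting intervals were tested on simulated Poisson counts, in which UMIs do not cluster by cell. Doublet removal, clustering, naming and phases were not tested in this way. Total depth was 72595083 UMIs. Of the pathway genes, those called with the largest ratios were named, up to 4 a list (some are not reported here, though the counts and medians of the lists include them), and for likeness the 3 genes of highest r among those with 20 CPM in a class. With 1 library, comparisons are of classes within it. Alternatives covered filters, doublets, resolution, CPM added, thinning and naming.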

Additional observations from a re-analysis of the deposited data

How the results depend on the processing

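There were 17 other settings, and not every setting applies to every value. Of the members' log2 ratios, 614 values moved by less than their counting error and 86 by more, with 0 changes of sign in a called ratio. The setting without a filter on low counts cannot move these ratios, so its values are all among the 614. Of the counts, 257 stayed within 1.5 times and 14 did not. When each cell weighed the same, 3 genes rather than 5 were called lower in Leydig-like than in interstitial-like cells. In Sertoli-like cells 0 rather than 1 was called lower in S or G2/M with 20 CPM added, and 0 without the 10 cells richest in *Igfbp5*, a setting chosen after seeing the data. With 1 CPM added, 1 gene was called higher and 4 lower in germ-like than in Sertoli-like cells, rather than 0 and 2. When the unnamed clusters joined their nearest class, also chosen after seeing the data, 0 rather than 1 was called higher in coelomic epithelium-like cells and 2 rather than 1 lower in peritubular myoid-like cells, both against interstitial-like cells. The number of genes seen in at least 10% of cells was 8 rather than 5 in Sertoli-like cells without doublet removal. In erythroid-like cells it was 0 without the outlier filter and 4 at 3000 UMIs rather than 8, in germ-like cells 1 at 3000 and at 5000 UMIs rather than 8, and in immune-like cells 4 at 3000 and 2 at 5000 rather than 7. For the settings that change cells or classes, the cause was not tested. Immune-like cells could not be named without the outlier filter or at 5 deviations, nor erythroid-like cells at the doubled doublet rate. The perivascular-like class, of 60 cells above, held 154 at resolution 1.2 and 154 without doublet removal. It held 174 when each cell was classed by itself. Levels of the 10 genes in these larger classes are not given here. No paired analysis was possible because there is 1 library, and neither animals nor libraries could be compared. Depth limits *Insr*, with 741 UMIs, and every value of the classes under 100 cells. *Igf2*, with 282 UMIs, carries the limit of its annotation given above.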
